A study of Mus musculus with 12 samples.

Results

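The genes described here encode the voltage-gated sodium and calcium channels, with their auxiliary subunits. They were taken as every transcript cluster of the array whose only annotated gene symbol belonged to the Scn alpha or beta families of sodium channels (Scn4b apart) or to the Cacna1, Cacna2d, Cacnb and Cacng families. This gave 49 transcript clusters of 33 genes, of 35556 transcript clusters in all and 21218 with 1 gene symbol. A transcript cluster is a group of probes that the array reports as 1 value, so a gene can have several. Scn2a had 14, and Cacna2d1, Cacng2 and Scn9a had 2 each. By family there were 22 transcript clusters of 8 sodium channel alpha genes, 2 of 2 sodium channel beta genes, 9 of 9 calcium channel alpha1 genes, 5 of 4 alpha2delta genes, 2 of 2 calcium channel beta genes and 9 of 8 gamma genes. Not every gene of these families is covered: Scn4a, Cacna1d, Cacnb2 and Cacnb3, for example, were not analysed here. Cacnb2 encodes the main calcium channel beta subunit of heart muscle, so the account of heart lacks it.

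The arrays came from heart and cerebrum of C57BL/6J mice with a humanized knock-in of IKBKAP, the gene mutated in familial dysautonomia (FD), a hereditary neuropathy that affects sensory and autonomic nerves. Mice received phosphatidylserine (PS), a membrane phospholipid, at 200 mg/kg, or medium-chain triglycerides (MCT) as the control, in 100 µl by gavage every other day for 3 months starting at 4 months of age. The 4 groups were PS heart, MCT heart, PS cerebrum and MCT cerebrum, with 3 arrays each. The stated question is the effect of PS on expression in the FD mouse. The genotype label of every array, the controls included, was FDloxP/+. The descriptions do not fully match: the design text names 6 FD mice, the growth protocol names 3 FD and 3 wild-type mice, and the source names give the dose per day. Values are log2 intensities, so a difference of 1 is a doubling of intensity. Levels of different channel genes were not ranked against each other, and averages and sums over marker genes serve to compare arrays.

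Sodium channel alpha subunits form the pore that starts the action potential, and beta subunits set their gating and their place in the membrane. Calcium channel alpha1 subunits form the pore that couples the action potential to transmitter release in neurons and to contraction in heart muscle, while alpha2delta and beta subunits carry the pore to the membrane and tune it. Several gamma proteins, the TARPs, instead escort AMPA-type glutamate receptors to synapses. In working heart muscle the L-type channel Cacna1c admits the calcium that triggers contraction, and neurons use a wider set of pores.

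The promoters of 4 members are shown because the results turn on these genes. Cacna2d2 fell with PS in cerebrum, Scn7a and Cacna1c were higher in heart than in cerebrum, and Scn2a was lower in heart in each of its transcript clusters. Each window spans a start site in RefSeq (build GRCm38.p6) and is printed from 5′ to 3′ on the gene's strand. Capitals mark GGGCGG, the core of the GC box, and TATAAA, the core of the TATA box, found on either strand. The windows are chr9:107399630-107399929 on the plus strand for Cacna2d2, chr2:66784861-66785160 on the minus strand for Scn7a, chr6:119108446-119108745 on the minus strand for Cacna1c and chr2:65668436-65668735 on the plus strand for Scn2a. RefSeq lists 3 windows for Cacna1c and 2 for Scn2a, and the arrays do not say which start site was used.
Cacna2d2: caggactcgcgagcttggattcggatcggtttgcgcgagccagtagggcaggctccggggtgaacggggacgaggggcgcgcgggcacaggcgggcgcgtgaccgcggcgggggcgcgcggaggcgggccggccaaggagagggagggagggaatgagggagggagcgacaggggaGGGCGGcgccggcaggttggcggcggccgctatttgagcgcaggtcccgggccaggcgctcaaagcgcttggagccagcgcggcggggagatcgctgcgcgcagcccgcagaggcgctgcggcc
Scn7a: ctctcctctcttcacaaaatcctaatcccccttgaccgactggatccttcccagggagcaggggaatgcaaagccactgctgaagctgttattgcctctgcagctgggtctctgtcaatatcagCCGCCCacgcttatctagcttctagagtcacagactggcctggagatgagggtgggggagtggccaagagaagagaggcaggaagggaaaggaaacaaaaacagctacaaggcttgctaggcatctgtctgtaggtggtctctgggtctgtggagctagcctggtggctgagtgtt
Cacna1c: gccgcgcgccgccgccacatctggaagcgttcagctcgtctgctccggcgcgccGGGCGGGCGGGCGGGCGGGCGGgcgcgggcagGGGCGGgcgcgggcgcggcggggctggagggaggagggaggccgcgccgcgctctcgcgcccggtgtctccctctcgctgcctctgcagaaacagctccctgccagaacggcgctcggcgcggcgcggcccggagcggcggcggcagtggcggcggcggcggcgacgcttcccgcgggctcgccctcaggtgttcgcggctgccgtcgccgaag
Scn2a: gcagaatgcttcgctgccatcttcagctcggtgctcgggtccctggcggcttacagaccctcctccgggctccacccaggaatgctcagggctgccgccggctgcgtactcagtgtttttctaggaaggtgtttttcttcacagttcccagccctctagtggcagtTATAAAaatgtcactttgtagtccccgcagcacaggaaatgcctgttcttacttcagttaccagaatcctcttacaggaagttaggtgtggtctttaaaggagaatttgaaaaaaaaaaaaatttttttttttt

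The Cacna1c window was 81.3% G or C with 57 CpG dinucleotides and 6 matches of GGGCGG. The Cacna2d2 window was 75.7% G or C with 43 CpG dinucleotides and 1 match, and the Scn7a window was 54% with 3 CpG dinucleotides and 1 match on the opposite strand. The Scn2a window was 47.7% G or C and held the only TATAAA among the members' promoters found. For the members together, 33 promoters of 25 genes were found, and 8 genes had none in the table. GGGCGG was in 12 of these 33 (36.4%), against 35.7% of 32851 promoters in all, and TATAAA in 1 of 33 (3.03%), against 13.6%. The Egr site GCGGGGGCG was in 4 of 33 (12.1%), against 2.91%, and the glucocorticoid half-site AGAACA in 4 of 33 (12.1%), against 19%. The E-box CACGTG was in 0 of 33, against 7.15% of all promoters. Some windows of a gene overlap, so these shares do not count independent sequences. A match is a run of letters and says nothing about a factor's binding.

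Array medians lay between 4.89 and 5, and correlations across transcripts were 0.979 to 0.995 within a group and 0.825 to 0.852 between the tissues. Markers fitted the labelled tissues. Markers of ventricular muscle averaged 12.38 to 12.45 in the heart arrays and 4.98 to 5.21 in the cerebrum arrays, whereas markers of all neurons averaged 4.81 to 5.02 in heart and 10.74 to 11.03 in cerebrum. The treatment groups differed in sex-linked transcripts: Xist, the RNA that silences an X chromosome in females, was 8.92 to 9.86 in the 3 PS hearts and in PS cerebrum 1 and 3, and 3.32 to 4.03 in PS cerebrum 2 and the 6 MCT arrays. The Y-linked gene Uty was 3.12 to 3.29 in the same 5 arrays and 7.19 to 7.83 in the other 7. In heart, sex pattern and treatment therefore cannot be told apart, and in cerebrum PS 2 is the only PS array with the pattern of the MCT arrays. The arrays are titled as biological replicates, with no animal named, so p-values measure the spread between these arrays.

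Heart differed from cerebrum in most of the channel genes. Among the 24 genes tested, Scn7a and Cacna1c were higher in heart and Cacna2d1 was at a similar level, while the other genes were lower in heart. In PS mice limma called 38 of 39 tested transcripts at an adjusted p of 0.05, with 2 higher in heart and 36 lower, against 75.9% of all 12732 tested (38.3% higher, 37.6% lower). In MCT mice 37 of 39 were called, with 2 higher and 35 lower, against 75.5% of 12734 (35.2% higher, 40.3% lower). Of all calls 50.5% were higher in heart in PS mice and 46.6% in MCT mice, and after median centring 61.3% and 61%. Among the members, 37 transcripts of 23 genes passed in both, 2 higher and 35 lower in heart. The filter on the mean over both tissues keeps transcripts that are high in one of them, so these counts describe the tested members and not all 49. The size of many differences is approximate too, because 30 of the 35 members lower in heart in MCT mice had a heart mean below the filter of 5.23.

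**Figure D1:**
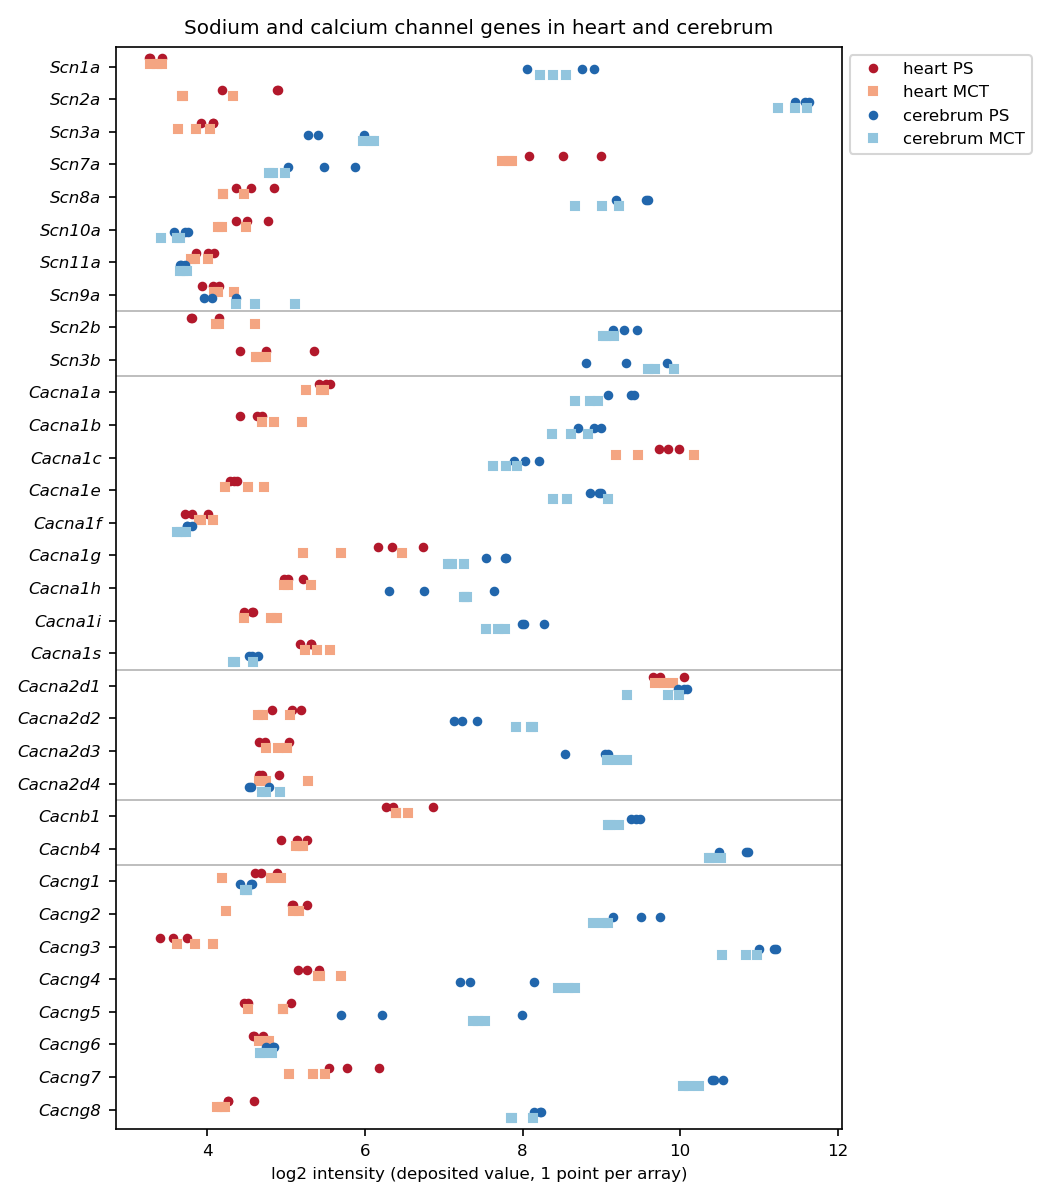
Log2 intensity of each of the 33 channel genes (rows, grouped by family; the transcript cluster of highest mean for each gene), with 1 point per array for PS heart, MCT heart, PS cerebrum and MCT cerebrum. Scn7a and Cacna1c lie further right in heart, the points of Cacna2d1 overlap, and most other genes lie further right in cerebrum.

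Scn7a, an atypical sodium channel that senses the sodium concentration and takes no part in the action potential, was the member furthest above cerebrum in heart. It was 8.08, 9.0 and 8.51 in PS hearts and 7.83, 7.87 and 7.74 in MCT hearts, against 5.48, 5.88 and 5.03 in PS cerebrum and 4.99, 4.78 and 4.83 in MCT cerebrum. Every heart array was above every cerebrum array. The log2 difference was 2.95 ± 0.11 in MCT mice (SE, adjusted p = 3.68e-08 in limma) and 3.07 ± 0.28 in PS mice (adjusted p = 2.6e-05).

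The other alpha subunits tested were lower in heart. Scn1a, a pore of many inhibitory neurons, was 3.42, 3.27 and 3.26 in PS hearts and 3.27, 3.36 and 3.43 in MCT hearts, against 8.76, 8.91 and 8.06 in PS cerebrum and 8.39, 8.22 and 8.55 in MCT cerebrum. Scn8a, which clusters at the axon's initial segment and nodes, was 4.55, 4.37 and 4.84 in PS hearts and 4.20, 4.47 and 4.20 in MCT hearts, against 9.57, 9.59 and 9.19 in PS cerebrum and 9.01, 8.67 and 9.22 in MCT cerebrum. The heart arrays of both genes lay within 3.26 to 4.84, far under the lowest cerebrum value of 8.06. The log2 differences in MCT mice were −5.03 ± 0.12 for Scn1a and −4.68 ± 0.16 for Scn8a (SE, adjusted p = 4.32e-09 and 2.37e-08 in limma). Scn3a, an alpha subunit of the developing brain, was below the filter of the tissue comparisons, at 4.07, 3.92 and 4.07 in PS hearts and 3.63, 3.86 and 4.04 in MCT hearts, against 5.41, 5.28 and 5.99 in PS cerebrum and 6.08, 5.97 and 6.12 in MCT cerebrum.

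Scn2a, the main alpha subunit of excitatory neurons, was measured by 14 transcript clusters, which share the gene and are not independent measures of it. Their median was 4.01, 3.97 and 3.84 in PS hearts and 3.86, 3.74 and 3.83 in MCT hearts, against 9.79, 9.61 and 9.61 in PS cerebrum and 9.47, 9.27 and 9.75 in MCT cerebrum. No heart value of any of the 14 exceeded 5.16 and no cerebrum value was under 8.15. The log2 difference of heart from cerebrum ran from −7.54 to −4.43 in MCT mice and from −6.96 to −4.73 in PS mice. Cluster 10472400, with the largest difference in MCT mice, was 4.18, 4.90 and 4.88 in PS hearts and 3.68, 3.69 and 4.32 in MCT hearts, against 11.63, 11.59 and 11.46 in PS cerebrum and 11.46, 11.24 and 11.61 in MCT cerebrum. The alpha subunits of sensory neurons stayed low in both tissues: Scn9a, Scn10a and Scn11a were between 3.41 and 5.11 in every array.

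**Figure D2:**
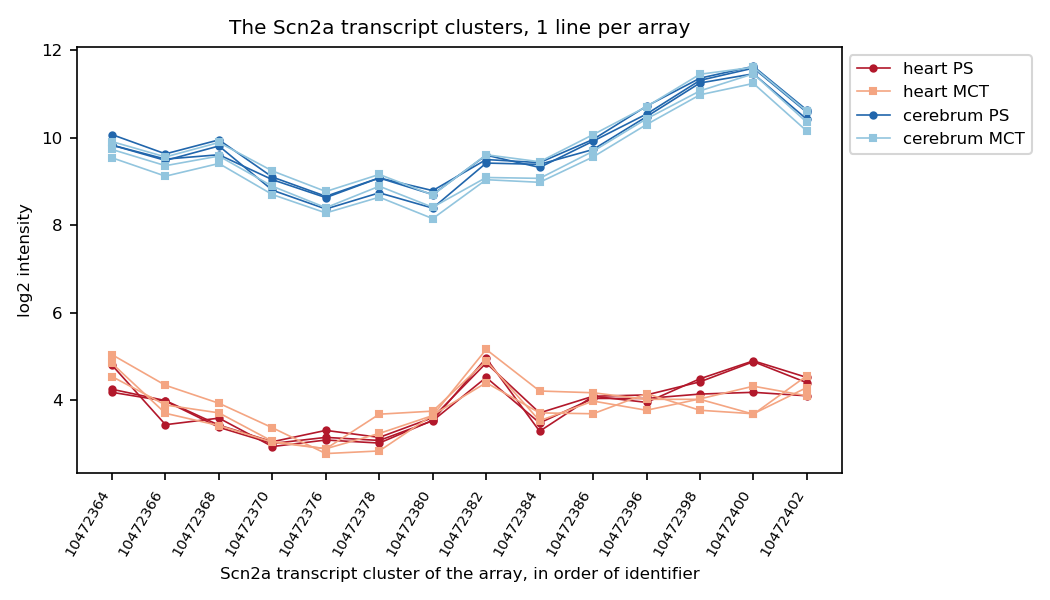
Log2 intensity (vertical axis) of the 14 Scn2a transcript clusters in order of identifier (horizontal axis), with 1 line for each of the 12 arrays. The heart lines lie at 2.78 to 5.16 and the cerebrum lines at 8.15 to 11.63, and the line of MCT cerebrum 2 is the lowest of the cerebrum lines at all 14 clusters.

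Both sodium channel beta subunits were lower in heart. Scn2b, which binds the alpha subunit covalently, was 3.80, 3.79 and 4.15 in PS hearts and 4.61, 4.15 and 4.11 in MCT hearts, against 9.29, 9.45 and 9.15 in PS cerebrum and 9.02, 9.06 and 9.16 in MCT cerebrum. Scn3b, which binds without a covalent link, was 4.41, 5.36 and 4.74 in PS hearts and 4.64, 4.62 and 4.74 in MCT hearts, against 9.31, 8.80 and 9.83 in PS cerebrum and 9.68, 9.59 and 9.92 in MCT cerebrum. The tissues did not overlap for either gene. In MCT mice the log2 differences were −4.79 ± 0.15 and −5.06 ± 0.12 (SE, adjusted p = 1.54e-08 and 4.25e-09 in limma).

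Among the calcium channel pores tested between the tissues, Cacna1c was the one higher in heart. It was 9.98, 9.73 and 9.84 in PS hearts and 9.18, 9.46 and 10.17 in MCT hearts, against 8.03, 7.89 and 8.21 in PS cerebrum and 7.79, 7.63 and 7.93 in MCT cerebrum. All heart arrays were above all cerebrum arrays, and the MCT hearts spread more widely than the PS hearts. The log2 difference was 1.82 ± 0.23 in MCT mice and 1.81 ± 0.12 in PS mice (SE, adjusted p = 0.000111 and 3.53e-06 in limma), a ratio of 3.53 and 3.50.

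The T-type pores open near the resting potential, and 3 genes encode them. Cacna1g was 6.74, 6.17 and 6.34 in PS hearts and 5.21, 5.69 and 6.47 in MCT hearts, against 7.78, 7.79 and 7.54 in PS cerebrum and 7.11, 7.05 and 7.26 in MCT cerebrum. It had the smallest difference among the pores lower in heart, at −1.35 ± 0.28 in MCT mice and −1.29 ± 0.16 in PS mice (SE, adjusted p = 0.00192 and 0.000153 in limma). Cacna1h was 4.97, 5.22 and 5.03 in PS hearts and 4.97, 5.02 and 5.31 in MCT hearts, against 6.75, 6.30 and 7.64 in PS cerebrum and 7.30, 7.26 and 7.27 in MCT cerebrum. Its PS cerebrum arrays spread widely, whereas its MCT cerebrum arrays were nearly equal. Cacna1i was 4.58, 4.57 and 4.46 in PS hearts and 4.88, 4.81 and 4.46 in MCT hearts, against 7.99, 8.27 and 8.02 in PS cerebrum and 7.69, 7.54 and 7.78 in MCT cerebrum.

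The presynaptic pores were far lower in heart. Cacna1a, the P/Q-type pore of transmitter release, was 5.42, 5.56 and 5.50 in PS hearts and 5.44, 5.25 and 5.48 in MCT hearts, against 9.37, 9.42 and 9.08 in PS cerebrum and 8.86, 8.66 and 8.96 in MCT cerebrum. Cacna1b, the N-type pore, was 4.42, 4.63 and 4.69 in PS hearts and 4.85, 5.20 and 4.69 in MCT hearts, against 8.99, 8.91 and 8.70 in PS cerebrum and 8.61, 8.38 and 8.83 in MCT cerebrum. All heart arrays of both genes were below all cerebrum arrays. Cacna1e, the R-type pore, was 4.34, 4.29 and 4.38 in PS hearts and 4.23, 4.72 and 4.52 in MCT hearts, against 9.0, 8.85 and 8.97 in PS cerebrum and 8.57, 8.39 and 9.09 in MCT cerebrum. The log2 differences in MCT mice were −3.44 for Cacna1a, −3.69 for Cacna1b and −4.19 for Cacna1e, each past the threshold. Cacna1f, the L-type pore of the retina, was between 3.61 and 4.07 in every array. Cacna1s, the L-type pore of skeletal muscle, was between 4.33 and 4.64 in cerebrum and between 5.18 and 5.56 in heart, without overlap, and was not tested because its mean did not reach the filter of the tissue comparisons.

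Of the alpha2delta subunits tested between the tissues, Cacna2d1, a target of gabapentin, had the smallest differences. Cluster 10519855 was 9.74, 9.66 and 10.05 in PS hearts and 9.68, 9.79 and 9.91 in MCT hearts, against 10.09, 9.97 and 10.05 in PS cerebrum and 9.85, 9.33 and 9.99 in MCT cerebrum. Cluster 10519815 was 9.23, 9.21 and 9.50 in PS hearts and 9.31, 9.49 and 9.68 in MCT hearts, against 9.74, 9.60 and 9.63 in PS cerebrum and 9.37, 8.92 and 9.58 in MCT cerebrum. In MCT mice the tissues overlapped, with log2 differences of 0.07 ± 0.18 and 0.20 ± 0.18 (SE, adjusted p = 0.730 and 0.330 in limma). In PS mice the second cluster was lower in heart, by −0.34 ± 0.11 (adjusted p = 0.0201), and the first differed by −0.22 ± 0.12 (adjusted p = 0.127). Median centring of the arrays raises the tissue differences by 0.33 in MCT mice and by 0.22 in PS mice, which is as large as these values: cluster 10519815 then stood at 0.54 in MCT mice (adjusted p = 0.0255) and at −0.13 in PS mice (adjusted p = 0.378). Its call in PS mice was also lost without PS cerebrum 1 (adjusted p = 0.0707), PS heart 1 (0.0675) or PS heart 2 (0.0579), and the other cluster passed without PS heart 3 (0.0224).

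Cacna2d2 and Cacna2d3, the alpha2delta subunits of particular neuron types, were lower in heart. Cacna2d3 was 5.04, 4.73 and 4.65 in PS hearts and 5.01, 4.90 and 4.75 in MCT hearts, against 9.05, 9.09 and 8.54 in PS cerebrum and 9.20, 9.07 and 9.33 in MCT cerebrum. The log2 difference in MCT mice was −4.31 for Cacna2d3 and −3.25 for Cacna2d2. Cacna2d4, which did not reach the filter, was between 4.53 and 5.28 in every array, and its tissues overlapped. Of the calcium channel beta subunits, Cacnb4 was 5.14, 5.26 and 4.93 in PS hearts and 5.17, 5.21 and 5.13 in MCT hearts, against 10.83, 10.86 and 10.49 in PS cerebrum and 10.39, 10.37 and 10.52 in MCT cerebrum. Cacnb1, best known as the beta subunit of skeletal muscle, was 6.36, 6.86 and 6.27 in PS hearts and 6.40, 6.55 and 6.40 in MCT hearts, against 9.49, 9.44 and 9.38 in PS cerebrum and 9.11, 9.08 and 9.23 in MCT cerebrum. The heart and cerebrum arrays of both beta subunits were well apart, with differences in MCT mice of −5.26 ± 0.10 for Cacnb4 and −2.69 ± 0.11 for Cacnb1 (SE, adjusted p = 2.59e-09 and 5.69e-08 in limma).

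The gamma family held the largest difference outside Scn2a. Cacng3, a TARP of the forebrain, was 3.74, 3.57 and 3.40 in PS hearts and 4.07, 3.84 and 3.62 in MCT hearts, against 11.19, 11.22 and 11.00 in PS cerebrum and 10.84, 10.53 and 10.98 in MCT cerebrum. Its log2 difference was −6.94 ± 0.16 in MCT mice and −7.57 ± 0.12 in PS mice (SE, adjusted p = 3.67e-09 and 5.62e-09 in limma). Cacng2, stargazin, had 2 clusters. Cluster 10430282 was 4.40, 4.27 and 4.48 in PS hearts and 4.50, 4.47 and 4.54 in MCT hearts, against 9.69, 9.94 and 9.27 in PS cerebrum and 9.13, 9.13 and 9.24 in MCT cerebrum, and cluster 10430280 had the same direction. Their differences in MCT mice were −4.66 and −4.17. Cacng8, a TARP of the hippocampus and cortex, was 4.26, 4.59 and 4.26 in PS hearts and 4.18, 4.12 and 4.22 in MCT hearts, against 8.15, 8.23 and 8.22 in PS cerebrum and 7.85, 7.87 and 8.13 in MCT cerebrum. The tissues were again far apart, with a difference of −3.78 in MCT mice. Cacng7 differed by −4.84, Cacng4 by −3.05 and Cacng5 by −2.63. Cacng1, the gamma subunit of the skeletal muscle calcium channel, and the related Cacng6 were between 4.18 and 4.93 in every array.

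PS was set against MCT in cerebrum to ask whether the lipid changed expression in brain. Of the channel genes, Cacna2d2 and Cacng4 fell and Cacna1g rose. These were 3 of 40 tested transcripts (7.5%) past an adjusted p of 0.05 in limma, against 5.76% of all 12733 tested. Counted over all clusters, the share of the members was near that of all transcripts. Scn2a made up 14 of the 40 with 0 calls, and without it the share was 3 of 26 (11.5%). Both shares rest on 3 calls. A rise was called for 1.83% of all transcripts and a fall for 3.93%. Of all calls 31.7% were rises, and 48% after median centring or 41.9% after quantile normalization. Of the members, called or not, 33 of 40 were above 0, against 45% of all transcripts, and their median difference was 0.21, against −0.03. The 14 clusters of Scn2a count as 14 of those 33.

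Cacna2d2, an alpha2delta subunit that in mice is needed for normal cerebellar function, was 7.13, 7.23 and 7.42 in PS cerebrum, against 7.92, 8.13 and 8.11 in MCT cerebrum. All PS arrays were below all MCT arrays, and PS 2, the array with the sex pattern of the MCT arrays, lay between the other PS arrays. The log2 difference was −0.79 ± 0.10 (SE, n = 3 each, adjusted p = 0.0184 in limma), 1.73-fold lower. The call was lost with 1 array fewer in 3 of 6 cases, without MCT 1 (adjusted p = 0.110), MCT 2 (0.106) or PS 1 (0.0757), while the difference stayed between −0.87 and −0.73 in all alternatives tried.

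Cacng4, a TARP, was 7.21, 7.33 and 8.14 in PS cerebrum, against 8.45, 8.66 and 8.58 in MCT cerebrum. PS arrays 1 and 2 were the furthest below the MCT arrays and PS 3 was closer to them, with no overlap. The log2 difference was −1.0 ± 0.23 (SE, adjusted p = 0.0487 in limma), 2.00-fold lower. The adjusted p was 0.0562 after median centring, 0.0527 after quantile normalization and 0.0677 with no filter. Leaving out an array gave an adjusted p of 0.179 without MCT 1, 0.163 without MCT 2, 0.0836 without MCT 3, 0.127 without PS 1 and 0.0958 without PS 2, and 0.00112 without PS 3.

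Cacna1g, a T-type pore, was 7.78, 7.79 and 7.54 in PS cerebrum, against 7.11, 7.05 and 7.26 in MCT cerebrum. The groups did not overlap, with PS 3 and MCT 3 the closest arrays of the 2 groups. The log2 difference was 0.56 ± 0.10 (SE, adjusted p = 0.0349 in limma), 1.48-fold higher. The adjusted p was 0.171 without MCT 1, 0.139 without MCT 2, 0.106 without PS 1 and 0.0709 without PS 2, and 0.0513 when transcripts with several or no symbols were tested too.

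**Figure D3:**
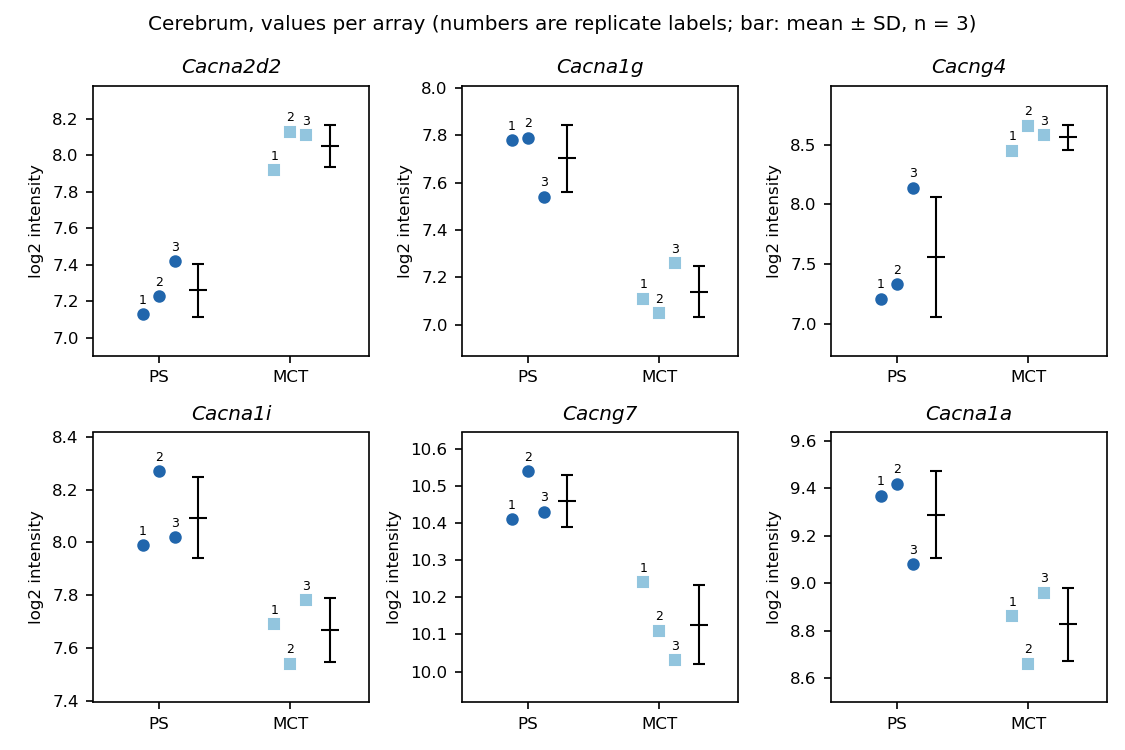
Log2 intensity (vertical axis) in PS and MCT cerebrum for the 6 channel transcripts of lowest p, with 1 numbered point per array and a bar for the mean ± SD (n = 3). Cacna2d2 and Cacng4 were lower in all 3 PS arrays, with Cacng4 at 8.14 in PS 3, and Cacna1g, Cacna1i, Cacng7 and Cacna1a were higher in all 3 PS arrays.

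Several members stood next to the threshold without passing it. Cacna1i, another T-type pore, differed by 0.42 (adjusted p = 0.0578 in limma), Cacng7, which acts on AMPA receptors, by 0.33 (0.0616), Cacna1a by 0.46 (0.0625) and Cacnb1 by 0.30 (0.0660). Their groups did not overlap: Cacng7, for example, was 10.41, 10.54 and 10.43 in PS cerebrum, against 10.24, 10.11 and 10.03 in MCT cerebrum. Without overlap there were 13 of 40 members, 11 higher and 2 lower, which at 32.5% is close to the 32.8% of all transcripts. None of the Scn2a clusters was among them, and outside Scn2a the count was 13 of 26 (50%). By direction the share was 12.4% of all transcripts for higher and 20.4% for lower.

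The alpha subunits of sodium channels had no call in cerebrum. At an unadjusted p under 0.05 there were 3, Scn7a with 0.60 (adjusted p = 0.102 in limma), Scn8a with 0.48 (0.109) and Scn3a with −0.50 (0.118). Over all members 15 of 40 had an unadjusted p under 0.05, 12 higher and 3 lower, against 29% of all transcripts (11.3% higher, 17.7% lower). Outside Scn2a these were 15 of 26. All 14 clusters of Scn2a were above 0, by 0.04 to 0.26 with a median of 0.15, and 0 of them passed at an adjusted or unadjusted p of 0.05. MCT cerebrum 2 was the lowest of the 6 arrays at all 14, and 4 clusters turned below 0 without that array. Among all 40 members MCT 2 was the lowest array in 27 (67.5%), against 22.1% of all transcripts tested. Leaving Scn2a aside, it was the lowest in 13 of 26 (50%).

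PS arrays spread widely for some members. Cacng5, a TARP, was 6.22, 5.69 and 7.99 in PS cerebrum, against 7.43, 7.52 and 7.37 in MCT cerebrum, and its difference of −0.81 ± 0.51 had an adjusted p of 0.332 in limma. PS arrays 1 and 2 were below all MCT arrays and PS 3 was above them, and Cacna1h had the same order. For Scn3b, PS arrays 1 and 2 were below the MCT arrays and PS 3 lay among them. Without PS 3 the members called in cerebrum numbered 13, among them Cacng5, Cacna1h and Scn3b. The calls over all transcripts rose as well, from 734 with all arrays to 1557 without PS 3.

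Markers of brain regions and cell types differed between the treatments in the same arrays. The 10 measured markers of striatal projection neurons averaged 6.52, 6.60 and 8.72 in PS cerebrum, against 9.37, 9.55 and 9.37 in MCT cerebrum; all 10 were lower with PS and 3 passed the threshold. The log2 of their summed level was 10.52 to 12.72 in PS cerebrum and 13.20 to 13.33 in MCT cerebrum. The 9 measured markers of cortical excitatory neurons averaged 8.80 to 9.14 in PS cerebrum and 8.20 to 8.66 in MCT cerebrum, all 9 higher with PS and 1 past the threshold, with a summed level of 12.86 to 13.14 and 12.27 to 12.73 on the log2 scale. The 7 measured markers of oligodendrocytes averaged 7.57 to 7.89 in PS cerebrum and 8.06 to 8.74 in MCT cerebrum, all 7 lower with 3 past the threshold, and the markers of thalamus were at 7.71 in MCT 2 and at 6.80 to 7.05 in the other arrays. The 8 markers of endothelium averaged 6.49 to 7.04 in PS cerebrum and 6.26 to 6.67 in MCT cerebrum, with all 8 above 0 and 0 called in limma. In tissue samples a smaller share of a cell type and less RNA per cell cannot be told apart, and the part of these markers in the differences of the channel genes was not tested.

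**Figure D4:**
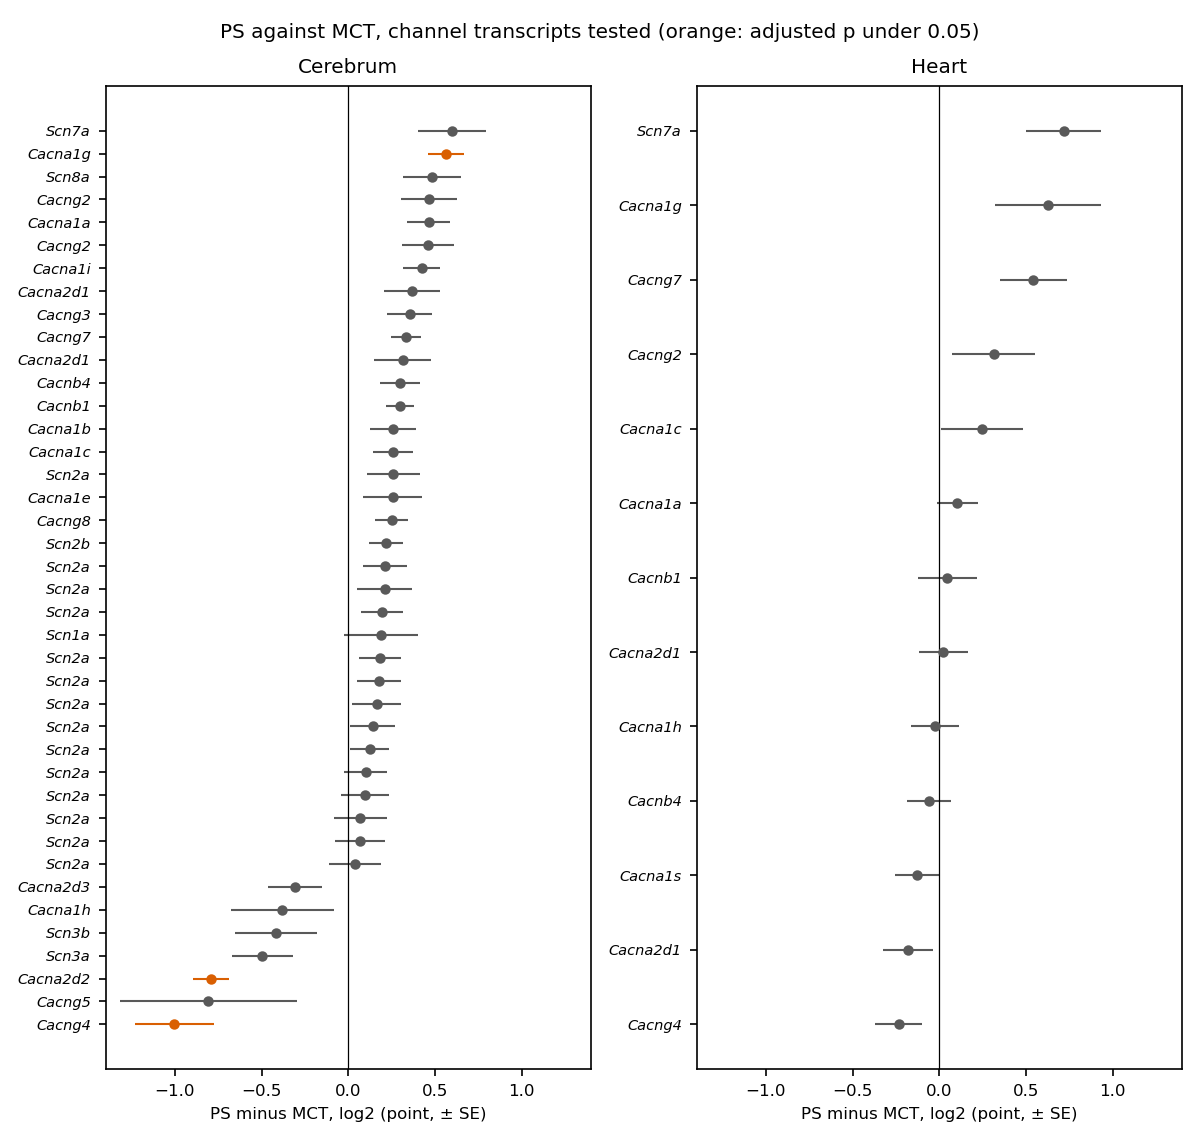
Difference of PS from MCT on the log2 scale (horizontal axis, point ± SE) for each channel transcript tested in cerebrum (left, 40 transcripts) and heart (right, 13 transcripts), 3 arrays per group. Cacna1g, Cacna2d2 and Cacng4 in cerebrum are drawn in orange for an adjusted p under 0.05, and no transcript is orange in heart.

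In heart 13 channel transcripts of 12 genes reached the filter of 4.94 and could be set against MCT. Of these, 0 passed an adjusted p of 0.05 in limma, where 0.33% of all 12736 transcripts did. With array weights limma called 5 of the 13, and 6987 of all 12736 transcripts. At an unadjusted p under 0.05 there were 2, Scn7a and Cacng7 (15.4%), against 23.7% of all transcripts, and the same 2 were the members without overlap, against 28.4%. Of the 13, 8 were above 0, against 57.7% of all transcripts, and 5 below, with a median of 0.05, against 0.06 over all transcripts. The other 36 transcripts, of 22 genes, had a heart mean below the filter, with single arrays at 2.78 to 5.36, and 8 transcripts of 7 genes were below it in both tissues.

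Scn7a was 8.08, 9.0 and 8.51 in PS hearts, against 7.83, 7.87 and 7.74 in MCT hearts, with every PS array above every MCT array. Its difference was 0.72 ± 0.22 (SE, adjusted p = 0.137 in limma). Cacng7 was 5.77, 6.18 and 5.55 in PS hearts, against 5.34, 5.04 and 5.49 in MCT hearts, where PS 3 and MCT 3 nearly met. Its difference was 0.54 ± 0.19 (adjusted p = 0.164). Cacna1g differed by 0.63 ± 0.31 (adjusted p = 0.246), and MCT heart 3, at 6.47, was above PS hearts 2 and 3. Cacng4 was 5.15, 5.42 and 5.27 in PS hearts, against 5.70, 5.41 and 5.43 in MCT hearts, with a difference of −0.23 (adjusted p = 0.314), and the groups overlapped.

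Of the L-type complex of heart muscle, Cacna1c and Cacna2d1 were tested and had no call, and Cacnb2 was not analysed. Cacna1c differed by 0.25 ± 0.24 (SE, adjusted p = 0.533 in limma), and MCT heart 3, at 10.17, was above all PS hearts. Without MCT heart 3 Cacna1c stood at 0.53 (adjusted p = 0.0316) and Cacna1g at 0.97 (0.0222), and without both MCT 3 and PS 3 their adjusted p was 0.0852 and 0.0603. The calls over all transcripts changed too, from 42 with all arrays to 3416 without MCT 3 and 1176 without both. The clusters of Cacna2d1 differed by 0.02 ± 0.14 and −0.18 ± 0.14 (adjusted p = 0.929 and 0.455). The T-type pore Cacna1h and the beta subunits Cacnb4 and Cacnb1 differed by −0.03, −0.06 and 0.05. MCT 3 and PS 3 were the hearts with the highest level of the atrial myosin light chain Myl7. It was 6.80 in PS 3 and 4.16 and 4.17 in the other PS hearts, and 8.53 in MCT 3 and 4.37 and 5.08 in the other MCT hearts. The 5 atrial markers, Myl7 included, averaged 6.59, 7.09 and 7.58 in PS hearts and 6.68, 6.89 and 7.88 in MCT hearts. By the log2 of their summed level heart 3 was instead the lowest of each group. The values were 11.4, 12.4 and 11.3 in PS hearts and 11.5, 11.7 and 11.4 in MCT hearts. The atrial markers thus do not give 1 order of the hearts. The 8 markers of endothelium averaged 8.80 to 9.08 in PS hearts and 8.18 to 8.64 in MCT hearts, with 7 of 8 higher and 0 called; the 7 of smooth muscle and pericytes averaged 8.04 to 8.50 in PS hearts and 7.30 to 7.81 in MCT hearts, with 6 of 7 higher and 0 called. The part of these markers in the values of Scn7a, Cacng7 and Cacna1c was not tested.

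**Figure D5:**
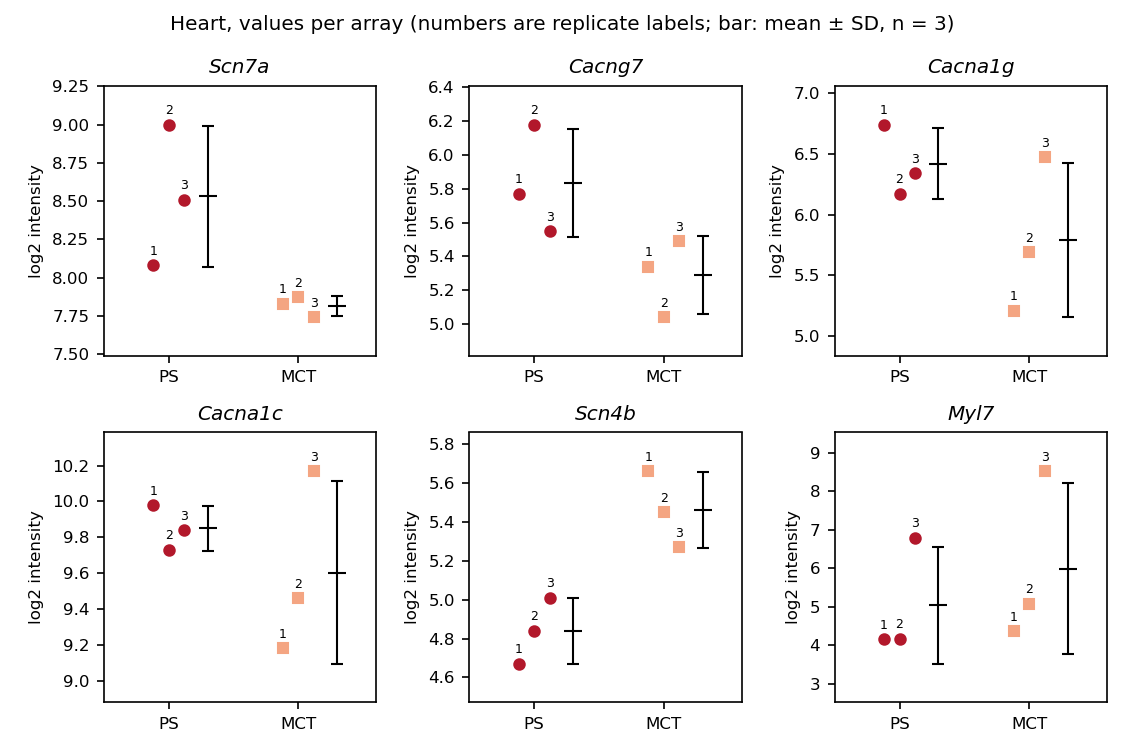
Log2 intensity (vertical axis) in PS and MCT hearts for Scn7a, Cacng7, Cacna1g, Cacna1c, the beta subunit Scn4b and the atrial marker Myl7, with 1 numbered point per array and a bar for the mean ± SD (n = 3). Scn7a and Cacng7 are higher in all PS hearts, Scn4b is lower in all PS hearts, and MCT 3 is the highest MCT heart for Cacna1g, Cacna1c and Myl7.

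The difference between the PS effects in heart and in cerebrum was tested over all 12 arrays. Cacna2d2 was the 1 member of 39 past an adjusted p of 0.05 in limma, against 1.52% of 12731 transcripts. Of all calls 72.2% were higher, and 49% after median centring. It was 5.07, 4.82 and 5.19 in PS hearts, against 4.71, 4.64 and 5.05 in MCT hearts. Its heart values were below 5.23, the mean over all 12 arrays that a transcript had to reach, and the groups overlapped. The effect in heart minus that in cerebrum was 1.02 ± 0.19 (SE, adjusted p = 0.0277). Median centring gave 0.90 (adjusted p = 0.0643), and leaving out any 1 of 9 arrays gave an adjusted p between 0.0535 and 0.0832, whereas it was 0.00782 to 0.0418 without PS cerebrum 3, MCT heart 3 or PS heart 2. At an unadjusted p under 0.05 there were 9 members of 39, 2 higher and 7 lower, against 19.2% of all transcripts (13% higher, 6.25% lower). Outside Scn2a these were 8 of 25. Among the 9 were Cacng4 at 0.77 (adjusted p = 0.168), Cacng3 at −0.63 (0.132) and Cacna1i at −0.60 (0.103). Many of the 39 reached the filter through their cerebrum level, since 13 member transcripts reached the filter of 4.94 in heart alone. In heart Cacng3 was 3.40 to 4.07 and Cacna1i 4.46 to 4.88, so the heart side of their differences is uncertain.

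Proteins that bind, place or modulate these channels were followed in a list of 44 genes, of which 39 were measured by 48 transcripts. In cerebrum 2 of 40 tested transcripts passed in limma with PS, a share near the 5.76% of all transcripts, and the median difference was −0.02. Scn4b, a sodium channel beta subunit that was followed among the partners and is known for its high level in the striatum, was 7.80, 7.94 and 8.38 in PS cerebrum, against 9.19, 9.21 and 9.23 in MCT cerebrum. It fell by 1.17 (SE 0.14, adjusted p = 0.0160), with no overlap. Unc79, a subunit of the sodium leak channel, was 8.49, 8.50 and 8.48 in PS cerebrum, against 8.09, 7.97 and 8.23 in MCT cerebrum, and rose by 0.39 (adjusted p = 0.0469). In heart 0 of 30 passed in limma, against 0.33% of all transcripts, and 6 had an unadjusted p under 0.05, against 23.7%. There Scn4b was 4.67, 4.84 and 5.01 in PS hearts, against 5.66, 5.45 and 5.27 in MCT hearts, a difference of −0.62 (unadjusted p = 0.00312, adjusted p = 0.121), again with no overlap.

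Between the tissues, in PS mice 14 of 42 tested partner transcripts were called higher in heart and 26 lower in limma, against 38.3% and 37.6% of all transcripts. In MCT mice 11 of 43 were higher and 29 lower, against 35.2% and 40.3%. Higher in heart in MCT mice were the calcium channel inhibitor Rrad, by 4.68, Jph2, which holds the calcium channel next to the internal store, by 4.31 and 4.14 for its transcripts, Rangrf, a Ran-binding protein, by 2.90, 2.76 and 2.19, the caveolin of muscle Cav3, by 2.65, and the calcium release channel Ryr2, by 2.61. Lower in heart were the neuronal adhesion protein Cntn1, at −6.10, the sodium channel regulator Fgf12, at −5.33, the leak channel subunit Unc80, at −5.11 and −5.10, the kinase Camk2a, at −4.69, and the active zone proteins Erc2 and Rims1, at −4.68 and −4.24. For the difference of the PS effects between the tissues 0 of 42 partner transcripts passed in limma, against 1.52% of all transcripts, and 7 had an unadjusted p under 0.05, against 19.2%.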

How the data were processed

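Biotin-labelled RNA of heart and cerebrum was hybridised to Affymetrix arrays, and a table with 12 columns of values was deposited. Affymetrix Expression Console is named as the software, per the submitters' processing notes, with no version; how background was corrected and probes were summarised is not stated in those notes or in the labels. The deposited values, 1.9 to 13.11, were taken as log2 intensity and used without further normalization. Exon-level changes are averaged within a cluster, and a change of all genes together would not be seen if the arrays were scaled to each other. The number of arrays limits the precision.

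Groups were taken from the labels. Comparisons used limma 3.58.1 (lmFit, eBayes, two-sided) under R 4.3.3. P-values were adjusted by Benjamini-Hochberg across every transcript with 1 gene symbol whose mean over the arrays in the fit reached the 40th percentile, with a threshold of 0.05. Gene symbols came from the platform annotation, and 21185 of 21218 matched the RefSeq gene table by identifier. Each tissue gave a comparison of PS with MCT, and each treatment one of heart with cerebrum. The difference of the PS effects was an interaction term over all 12 arrays. The tissue comparisons and the PS comparisons share arrays. Motifs were searched on both strands of the RefSeq promoters (GRCm38.p6). Named genes were the members past the threshold in a PS comparison, the 6 of lowest p in each, the 6 with the largest difference in each direction between tissues and a set of main heart and neuronal subunits. Of 9 motifs searched, those not described in the results were in 0 of the 33 promoters of the members: the cAMP response element TGACGTCA (1.79% of all promoters), the RE1 element (0.0335%) and its left and right parts (0.371% and 0.137%). The members and lists were chosen with earlier results of these data known. The fits were tested on simulated data. Alternatives covered scaling, filters, transcripts tested, variance model, array weights, a replicate block, 1 transcript per gene, thresholds and leaving out arrays.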

Additional observations from a re-analysis of the deposited data

Results flagged for a closer look

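The effect of PS differed between heart and cerebrum for Cacna2d2, by a test of the difference itself in limma over all 12 arrays: the effect in heart minus that in cerebrum was 1.02 on the log2 scale (SE 0.19, adjusted p = 0.0277). In cerebrum all 3 PS arrays were below all 3 MCT arrays, and in heart the groups overlapped. Cacna2d2 was too low in heart to be tested there and reached the filter over 12 arrays through its cerebrum level. The adjusted p was 0.0643 after median centring and 0.0535 to 0.0832 without any 1 of 9 of the arrays.

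The same test, with transcripts of several or no symbols included, also passed for transcript cluster 10483215, whose annotation names both Scn3a and Scn1a, so its signal cannot be given to either gene. It was 4.75, 4.61 and 4.88 in PS hearts, against 4.04, 3.69 and 4.13 in MCT hearts, and 7.29, 7.30 and 7.63 in PS cerebrum, against 7.68, 7.54 and 7.93 in MCT cerebrum. The effect in heart minus that in cerebrum was 1.103 (SE 0.21, adjusted p = 0.0371). All PS hearts were above all MCT hearts, at a level below the filter, which the cluster reached through its cerebrum level. The size of the difference in heart is therefore uncertain.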

How the results depend on the processing

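With 3 arrays per group, 1 array decides many calls, and low intensities limit the heart side of most members. Where a cause is not named, the cause was not tested. For PS against MCT in cerebrum the 734 transcripts called became 218 with transcripts of several or no symbols included, 3407 with array weights, 0 with the replicate block, 2148 at an adjusted p of 0.10 and 3692 at an unadjusted p of 0.05, and 0 to 1557 with 1 array left out, 0 without MCT 1 and 1557 without PS 3. The 3 members called became 5 with the stricter filter, 1, 14 and 0 under the first 3 of these settings, 8 and 15 at the 2 thresholds, and 0 to 13 with 1 array left out. For PS against MCT in heart the 42 became 22 with several or no symbols, 6987 with array weights, 88 with the replicate block, 106 and 3015 at the looser thresholds, 4 to 3416 with 1 array left out (3416 without MCT 3) and 1176 without MCT 3 and PS 3, an alternative chosen after seeing the data. The 0 members became 5 with array weights, 2 at an unadjusted p of 0.05 and 0 to 2 with 1 array left out, 2 without MCT 3. The block changed no call for the members in heart, between the tissues or for the difference of the PS effects.

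Between heart and cerebrum in MCT mice, the 9610 calls became 6396 with the stricter filter and 8619 to 10315 with 1 array left out, and the 37 members 23 with the stricter filter or 1 transcript per gene, where fewer were tested, and 36 to 37. In PS mice the 38 members became 23 in both cases, and 37 to 39. For the difference of the PS effects, the 194 became 633 and 2448 at the looser thresholds and 3 to 1629 with 1 array left out, from without MCT cerebrum 1 to without MCT heart 3. The 1 member became 0 with median centring or the stricter filter, under which Cacna2d2 was not tested, 9 at an unadjusted p of 0.05 and 0 to 4 with 1 array left out.

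Directions turned for values near 0. In cerebrum, leaving out 1 array gave −0.085 to 0.185, −0.0317 to 0.213, −0.0583 to 0.202 and −0.01 to 0.245 for Scn2a clusters 10472370, 10472376, 10472378 and 10472386. In heart, Cacna2d1 10519855 was −0.0467 after median centring, −0.0933 to 0.102 with 1 array left out and −0.035 without MCT 3 and PS 3. Cacna1h was 0.0206 with array weights, −0.10 to 0.0783 with 1 array left out and 0.10 without MCT 3 and PS 3, and Cacnb4 was −0.135 to 0.03 with 1 array left out and 0.01 without both. Between the tissues in MCT mice, Cacna2d1 10519855 was −0.0037 with array weights and −0.13 to 0.20 with 1 array left out.

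The replicate numbers were not taken to pair the arrays, since not every same-numbered pair had a correlation over 0.1: correlations of the deviations of same-numbered arrays were 0.101, −0.155 and −0.259 for PS and MCT cerebrum and −0.00473, 0.0897 and 0.147 for PS and MCT heart. Between heart and cerebrum they were all above 0, at 0.119, 0.101 and 0.0525 in PS mice, where each heart array correlated best with the cerebrum array of its own number, and at 0.115, 0.0993 and 0.285 in MCT mice, where heart 1 did not. PS heart 2 and PS cerebrum 2 nevertheless differed in sex pattern, with Xist high in the heart array and low in the cerebrum array. As labelled, these arrays do not match as 1 animal. With the block, the adjusted p in cerebrum was 0.092 for Cacna2d2, 0.124 for Cacna1g and 0.124 for Cacng4.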

Other observations

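Transcript clusters annotated with a channel gene and other genes were not counted among the members. Cluster 10418355, shared by Cacna1d, an L-type pore of neurons and pacemaker cells, and the unrelated Chdh, was 4.31, 4.21 and 4.42 in PS hearts and 4.46, 4.34 and 4.26 in MCT hearts, against 6.98, 6.65 and 7.14 in PS cerebrum and 6.89, 6.65 and 6.93 in MCT cerebrum. Its log2 difference of heart from cerebrum was −2.47 in MCT mice (adjusted p = 6.05e-07 in limma), and its difference of PS from MCT in cerebrum was 0.10 (adjusted p = 0.690). Cluster 10472374, shared by Scn9a, Scn8a and Scn1a, was 3.95, 4.42 and 4.03 in PS hearts and 4.47, 4.62 and 4.47 in MCT hearts, against 9.01, 8.96 and 8.73 in PS cerebrum and 8.80, 8.63 and 9.14 in MCT cerebrum. The heart values of both clusters were far below the cerebrum values, and PS and MCT overlapped in cerebrum for both.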
